A study of Mus musculus with 9 samples.

Results

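The 10 genes described here mark T cells and natural killer cells: the CD3 chains Cd3d, Cd3e and Cd3g, the coreceptors Cd4 and Cd8a, the cytotoxic granule genes Gzma, Gzmb, Prf1 and Nkg7, and the natural killer receptor Klrb1c. They were taken by symbol from the files, where all 10 were found among 34619 unique gene symbols. RNA was sequenced from the uterus of wild-type CD-1 (ICR) females, outbred mice bought at 7 to 8 weeks of age and kept on an estrogen-free diet. Control mice received corn oil, and the other mice bisphenol B (BPB) or bisphenol AF (BPAF), each at 300 µg/kg of body weight daily, by gavage for 28 days. Each of the 3 groups had 3 libraries. BPB and BPAF are replacements for bisphenol A that differ at the carbon joining the phenol rings: BPB has a methyl and an ethyl group there, BPAF trifluoromethyl groups. Whether a library came from 1 mouse is not stated, nor is the stage of the estrous cycle, so p-values measure the spread between these libraries.

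T cells recognise peptides through a receptor whose signal is carried by the CD3 chains, with CD4 or CD8 as coreceptor. Natural killer cells lack that receptor and read activating and inhibitory receptors instead, and both cell types kill by releasing perforin and granzymes from granules. The uterus is known for a resident natural killer population that expands as the lining decidualises. In whole tissue, fewer cells of a type and less RNA per cell cannot be told apart.

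Values are FPKM, in which the reads of a gene are divided by its length and by the total of the library, here 12620196 to 15616775 reads. The number of reads behind a value was recovered from the step that 1 read makes. Genes reaching 1 FPKM in 3 or more libraries were tested, which was 13743 genes and 5 of the 10: Cd3g, Gzma, Gzmb, Prf1 and Nkg7. A gene was called at a Benjamini-Hochberg adjusted p under 0.05 over all tested genes in limma. Some libraries stood apart. The summed FPKM of 10 urothelial genes reached 1712 to 2888 in the BPB libraries, 1432 in BPAF 1 and only 6.52 to 81.0 in the other 5. The 10 interferon-response genes summed to 1974, 349 and 503 FPKM in controls 1, 2 and 3, to 108 to 177 in BPB and to 214 to 270 in BPAF. In control 3, 34.1% of the FPKM sum was mitochondrial, against 14.0% to 27.0% in the other libraries, and it had the fewest genes at 1 FPKM (11614). The 8 uterine markers (Esr1, Pgr, Hoxa10, Hoxa11, Hoxd10, Emx2, Wnt7a and Foxa2) were all tested and summed to 118 to 312 FPKM. Single markers were uneven, and in BPB against control 4 had higher and 4 lower means. Pgr had 8.10 to 22.4 FPKM in BPB and 35.6 to 59.5 in control, and Wnt7a had 0.377 FPKM in BPB 3. The uterine share of each library was not measured.

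By its highest library, the granule genes Gzma and Gzmb led the 10, and the T-cell genes Cd3e, Cd4 and Cd8a came last. The T-cell gene Cd3g reached 6.72 FPKM, above the granule gene Prf1 with at most 4.42 FPKM. Gzma and Gzmb reached 25.6 and 18.2 FPKM, and the natural killer receptor gene Ncr1 had 1.45 to 12.7 FPKM. Ncr1 is 1 of 21 listed natural killer genes, of which 10 were tested, and others such as Cd160 had at most 0.337 FPKM. The T-cell receptor gene Trbc1 had 0.610 to 5.07 FPKM, so neither cell type was uniformly high or low. Cd3e, Cd4 and Cd8a stayed under 1 FPKM in all 9 libraries. None of the 5 tested members passed the test in any comparison of groups. The granule genes were instead high in control 1, BPAF 1 and BPAF 3, and lower in the 3 BPB libraries, control 2, control 3 and BPAF 2. Genes of both cell types were detected: Cd3g had 14 to 120 reads, the T-cell receptor gene Trbc1 7 to 58 and the kinase gene Lck 51 to 219, where Klrb1c had 16 to 213 and Ncr1 31 to 270 reads. Klrb1c stayed under 1 FPKM in 7 libraries. Lck and Cd3g are not limited to T cells.

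**Figure D1:**
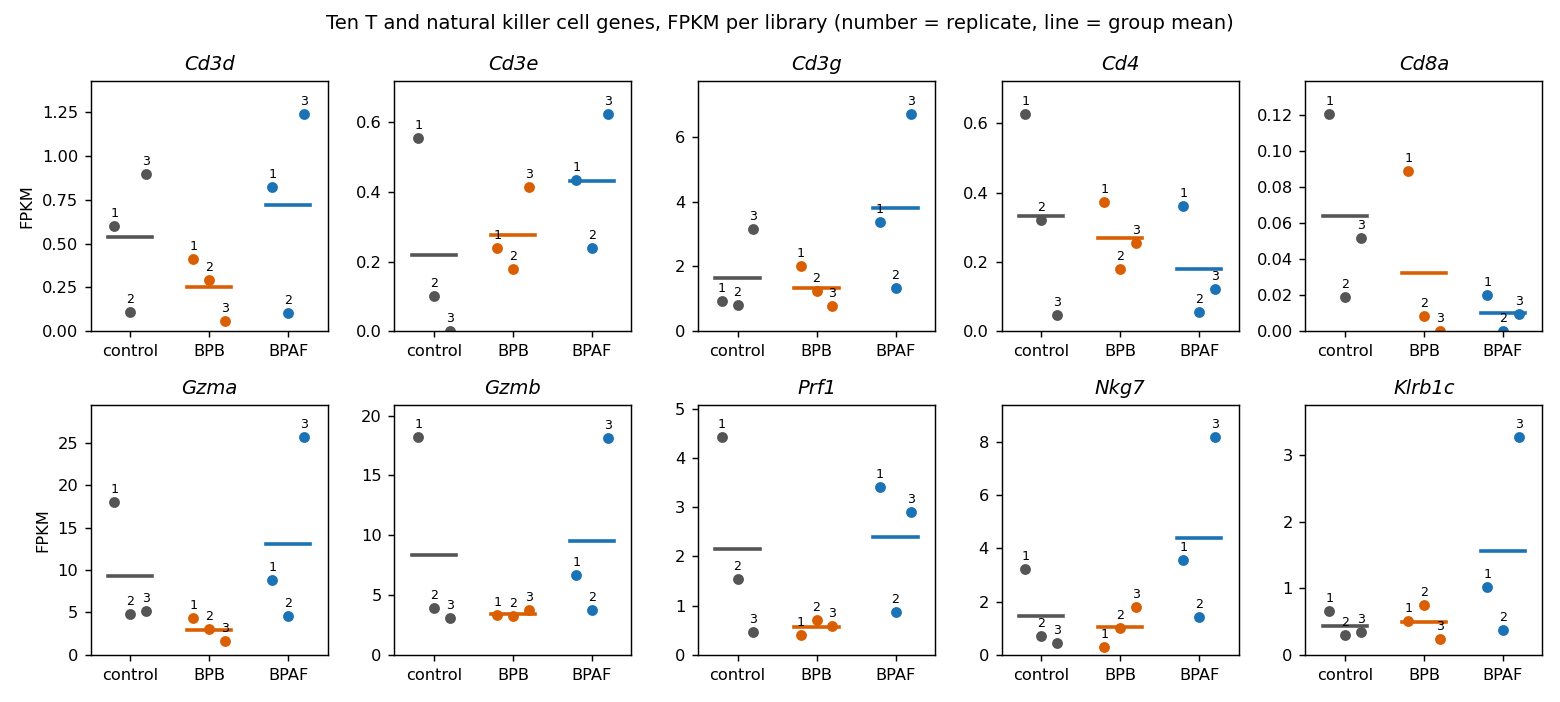
FPKM of each of the 10 genes (vertical axes, 1 scale per gene) in the control, BPB and BPAF libraries. Points are libraries with their replicate number, lines are group means. The granule genes are high in control 1, BPAF 1 and BPAF 3, and the axis of Cd8a ends below 0.15 FPKM.

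The CD3 chains pair with the T-cell receptor and carry its signal into the cell. Cd3e had 0.554, 0.10 and 0 FPKM in controls 1, 2 and 3. It had 0.239, 0.178 and 0.415 FPKM in BPB and 0.434, 0.238 and 0.625 FPKM in BPAF, in the same replicate order. These values rest on 0 to 12 reads per library, and the groups overlapped. A value of 0 allows up to 3 reads, for counting error only.

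Cd3d, which binds next to Cd3e in the complex, had 0.601, 0.109 and 0.898 FPKM in the controls. It had 0.414, 0.290 and 0.0564 FPKM in BPB, and 0.825, 0.104 and 1.24 FPKM in BPAF, from 1 to 22 reads. BPAF 3 was the only library above 1 FPKM, and all 3 groups overlapped.

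Cd3g had the highest FPKM of the CD3 chains in every library. It had 0.943, 0.810 and 3.15 FPKM in the controls, 2.00, 1.25 and 0.782 FPKM in BPB, and 3.39, 1.33 and 6.72 FPKM in BPAF. BPAF 3, BPAF 1 and control 3 were the high libraries, and the groups overlapped. In control 3 Cd3g had 53 reads, where Cd3d had 15 and Cd3e none, so the 3 chains did not keep 1 ratio across libraries. Cd3g over the sum of Cd3d and Cd3e was 0.817 in control 1 and 1.66 to 3.90 in the other libraries. Cd3g transcripts are also known from natural killer cells, which do not assemble the surface receptor.

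The coreceptors had low FPKM throughout. Cd4 had 0.628, 0.320 and 0.0479 FPKM in the controls. It had 0.373, 0.181 and 0.256 FPKM in BPB and 0.362, 0.0552 and 0.121 FPKM in BPAF, from 3 to 47 reads. Control 1 was highest, and the groups overlapped. Cd8a had 0.121, 0.0187 and 0.0515 FPKM in the controls and 0.0890, 0.00832 and 0 FPKM in BPB. In BPAF it had 0.0203, 0 and 0.00972 FPKM. Its reads were 14, 2 and 5 in controls, 10, 1 and 0 in BPB and 2, 0 and 1 in BPAF, so no difference between groups could be read at this depth. The length behind the values was 4959 bases for Cd4 and 7695 bases for Cd8a, longer than the longest GENCODE M21 transcripts of 3108 and 3128 bases. The same held for Nkg7 (1600 against 881 bases) and Klrb1c (4872 against 2623 bases). A longer divisor lowers FPKM, so levels of different genes compare only under the lengths the authors used.

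The cytotoxic granule genes carried most of the signal. Granzyme A is a serine protease of cytotoxic granules. Gzma had 18.0, 4.85 and 5.14 FPKM in controls 1, 2 and 3, and 4.29, 3.06 and 1.61 FPKM in BPB. In BPAF it had 8.88, 4.60 and 25.6 FPKM. All 3 BPB libraries lay below all 3 controls and all 3 BPAF libraries, while BPAF and control overlapped. Read counts ran from 19 in BPB 3 to 301 in BPAF 3.

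Granzyme B cleaves caspases in the target cell. Gzmb had 18.2, 3.92 and 3.07 FPKM in the controls and 6.65, 3.77 and 18.1 FPKM in BPAF. Its BPB libraries stood close together at 3.33, 3.25 and 3.79 FPKM. Control 1 and BPAF 3 held 389 and 344 reads and the other 7 libraries 55 to 121 reads, and all groups overlapped.

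Perforin, the product of Prf1, opens the target membrane to granzymes. Prf1 had 4.42, 1.55 and 0.463 FPKM in the controls, 0.400, 0.717 and 0.581 FPKM in BPB, and 3.42, 0.867 and 2.91 FPKM in BPAF. The lowest BPAF library lay above the highest BPB library, and control overlapped with both. Reads ran from 12 to 137.

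Nkg7 encodes a membrane protein of the granules. It had 3.23, 0.721 and 0.446 FPKM in the controls, 0.300, 1.0 and 1.82 FPKM in BPB, and 3.56, 1.41 and 8.18 FPKM in BPAF. BPAF 3 was highest with 175 reads and BPB 1 lowest with 7 reads, and each pair of groups overlapped.

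Klrb1c encodes NK1.1, a lectin-like receptor of natural killer cells. It had 0.653, 0.296 and 0.342 FPKM in the controls, 0.506, 0.749 and 0.245 FPKM in BPB, and 1.02, 0.380 and 3.27 FPKM in BPAF. BPAF 3 stood apart with 213 reads against 16 to 64 in the other libraries. Only 2 libraries reached 1 FPKM, so the gene fell short of the level for testing by 1 library. Nkg7 and Cd3g, with 6 libraries each at that level, and Prf1 with 4 were the members closest inside it. Klrb1c overlaps the gene Gm44511 on the same strand and Cd3e the genes Gm48720 on the same strand and Gm48719 on the opposite strand in GENCODE M21, and whether counting used strand is not given, so both values are uncertain.

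The order of libraries was shared by the granule genes. Gzma, Gzmb, Prf1 and Nkg7 each had control 1, BPAF 1 and BPAF 3 as their 3 highest libraries, and so did Cd3e among the other 6 genes. Over all 13743 tested genes 124 had this order, or 0.90%. The order was noticed in these genes, so the count is a description. The 4 genes summed to 43.9, 22.5 and 54.9 FPKM in control 1, BPAF 1 and BPAF 3, and to 7.80 to 11.03 FPKM in the other 6 libraries.

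Promoters of these genes are shown because the granule genes varied together. RefSeq promoters of GRCm38.p6, from 250 bases before to 50 bases after the start site, matched 9 of the 10 symbols, all but Cd4. They were searched on both strands for TGTGGT (a RUNX-type core), CAGGAAG (an ETS-type core), GGTGTGA (a T-box-type core) and TATAAA, none of which overlapped in these sequences. Capitals mark matches, which appear as the reverse complement where they lie on the opposite strand. Cd3g is printed for comparison and held none.
Gzma (chr13:113100932-113101231, minus strand): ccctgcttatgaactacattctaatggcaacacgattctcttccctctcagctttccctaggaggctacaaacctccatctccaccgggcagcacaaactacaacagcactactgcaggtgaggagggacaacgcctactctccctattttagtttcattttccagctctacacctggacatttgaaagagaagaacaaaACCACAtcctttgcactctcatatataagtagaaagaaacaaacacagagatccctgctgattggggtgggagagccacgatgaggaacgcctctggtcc
Gzmb (chr14:56262285-56262584, minus strand): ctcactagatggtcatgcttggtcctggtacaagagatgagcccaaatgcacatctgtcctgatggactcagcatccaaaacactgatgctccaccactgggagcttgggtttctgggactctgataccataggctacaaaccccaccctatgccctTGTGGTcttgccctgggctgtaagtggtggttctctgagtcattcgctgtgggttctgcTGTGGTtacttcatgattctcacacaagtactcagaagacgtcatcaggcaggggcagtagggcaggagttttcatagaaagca
Prf1 (chr10:61297586-61297885, plus strand): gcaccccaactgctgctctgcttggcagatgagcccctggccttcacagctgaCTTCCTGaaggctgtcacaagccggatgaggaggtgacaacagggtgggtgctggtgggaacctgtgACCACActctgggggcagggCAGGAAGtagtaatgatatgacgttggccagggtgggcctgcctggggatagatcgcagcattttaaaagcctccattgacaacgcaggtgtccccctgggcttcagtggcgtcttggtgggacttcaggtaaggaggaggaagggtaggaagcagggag
Nkg7 (chr7:43436888-43437187, plus strand): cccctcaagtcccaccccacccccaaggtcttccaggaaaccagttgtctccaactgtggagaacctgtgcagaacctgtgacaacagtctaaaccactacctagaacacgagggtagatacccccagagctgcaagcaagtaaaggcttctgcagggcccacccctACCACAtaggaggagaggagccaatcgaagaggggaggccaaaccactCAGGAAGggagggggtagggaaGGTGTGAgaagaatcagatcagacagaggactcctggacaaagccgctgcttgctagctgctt
Klrb1c (chr6:128788592-128788891, minus strand): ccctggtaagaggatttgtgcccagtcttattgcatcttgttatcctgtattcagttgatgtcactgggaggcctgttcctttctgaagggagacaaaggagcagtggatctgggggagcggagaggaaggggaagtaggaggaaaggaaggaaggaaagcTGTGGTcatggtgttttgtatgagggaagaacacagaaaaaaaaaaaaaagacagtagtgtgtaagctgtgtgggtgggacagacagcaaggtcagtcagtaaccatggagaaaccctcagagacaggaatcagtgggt
Cd3g (chr9:44980382-44980681, minus strand): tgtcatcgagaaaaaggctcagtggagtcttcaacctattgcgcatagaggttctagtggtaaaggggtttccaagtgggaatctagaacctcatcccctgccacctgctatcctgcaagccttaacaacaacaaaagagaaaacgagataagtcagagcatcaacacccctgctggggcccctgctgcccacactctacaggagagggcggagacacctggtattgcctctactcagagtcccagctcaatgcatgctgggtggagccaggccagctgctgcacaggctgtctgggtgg
TGTGGT stood in 5 of the 9 promoters, the 4 granule genes and Klrb1c, and in 16.8% of all 32851 promoters of the same length. In Gzmb it occurred 93 and 34 bases before the start site, in Gzma 50, in Nkg7 83, in Klrb1c 89 and in Prf1 130 bases before it. CAGGAAG stood in 3 promoters, those of Prf1, Nkg7 and Cd3e, against 13.3% of all. GGTGTGA was found in Nkg7 alone, against 4.0% of all, and TATAAA in none of the 9, against 13.6%. A match is a stretch of letters and was not tested as a binding site.

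In BPB against control, no member was called, where limma called 351 of 13743 genes (2.55%), with 2.05% higher and 0.502% lower in BPB. These were 282 and 69 genes, and 198 and 107 when libraries were scaled by median ratios. All 5 tested members had lower means on the log2(FPKM + 1) scale in BPB, with a median difference of -0.71, against 0.15 over all tested genes. Of these, Prf1 had at most 0.717 FPKM in BPB and met the filter through control and BPAF libraries only, which favours a lower mean in BPB. Over all 10 members, with no filter on level, the median was -0.13, and Cd3e and Klrb1c had higher means in BPB. Gzma averaged 2.99 ± 1.34 FPKM in BPB and 9.34 ± 7.53 in control (SD, n = 3), a log2 difference of -1.20 (SE 0.62, 95% interval -2.60 to 0.20, adjusted p = 0.360 in limma). Prf1 averaged 0.566 ± 0.159 FPKM against 2.14 ± 2.05 (log2 difference -0.80, adjusted p = 0.435 in limma). Adjusted p in limma was 0.626 for Gzmb (3.46 ± 0.288 FPKM against 8.39 ± 8.49), 0.920 for Nkg7 and 0.951 for Cd3g. At an unadjusted p under 0.05 the count of members was also 0, where 17.4% of all tested genes passed. Gzma was the 1 member whose BPB libraries all lay below the controls, a pattern that 6.10% of the tested genes had. Control 1 held much of the difference: without it the median was -0.26, and the log2 difference was -0.01 for Gzmb, -0.31 for Prf1 and -0.65 for Gzma. Without control 3 the median was -1.13. The interferon-response genes were also lower in BPB, with 8 of 10 below all controls (6.10% of the tested genes), a median log2 difference of -2.64 and 1 gene, Bst2, called (log2 difference -2.04, adjusted p = 0.038 in limma). The urothelial genes went the other way, with 9 of 10 called higher in BPB (2.05% of the tested genes). They summed to 1712 to 2888 FPKM in BPB and 6.83 to 81.0 in control, so exposure and urothelial content cannot be told apart here. The part of either list in the members' values was not tested.

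In BPAF against control, no member was called either, and limma called 3 genes (0.0218%), with 0.00728% higher and 0.0146% lower in BPAF. The 5 tested members had higher means in BPAF, with a median log2 difference of 0.37 against 0.21 over all tested genes. Among the untested members, Cd4 and Cd8a had lower means in BPAF (log2 differences -0.16 and -0.07). Cd3d, Cd3e and Klrb1c had higher ones (0.14, 0.25 and 0.68). Nkg7 averaged 4.38 ± 3.46 FPKM in BPAF and 1.47 ± 1.54 in control, a log2 difference of 1.09 (SE 0.55, 95% interval -0.16 to 2.33, adjusted p = 0.438 in limma). Cd3g averaged 3.81 ± 2.72 FPKM against 1.63 ± 1.31 (log2 difference 0.81, adjusted p = 0.485 in limma). Gzma averaged 13.0 ± 11.1 FPKM in BPAF (log2 difference 0.37, adjusted p = 0.830 in limma), and adjusted p in limma was 0.869 for Gzmb and 0.864 for Prf1. No member had an unadjusted p under 0.05, against 12.8% of all tested genes, and all 5 overlapped between the groups, where 14.3% of the tested genes were higher and 2.50% lower in every BPAF library. Without BPAF 3 the median was 0.08, the log2 difference was 0.60 for Nkg7 and 0.39 for Cd3g, and Gzma and Gzmb turned to -0.24 and -0.27. Prf1 turned to -0.22 without control 3 and -0.01 without BPAF 1, and Nkg7 and Cd3g kept their sign without any single library. The median was 0.18 without control 2, 0.11 without control 3, 0.93 without control 1 and 0.88 without BPAF 2.

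Dose by mass and duration matched between the bisphenols, which form the only pair of compounds. No member was called in BPAF against BPB, and limma called 33 genes (0.240%), each of them lower in BPAF. All 5 tested members had higher means in BPAF, with a median log2 difference of 1.03 against 0.07 over all tested genes. Over all 10 members, with no filter on level, the median was 0.76, and Cd4 and Cd8a had lower means in BPAF. Prf1, at most 0.717 FPKM in BPB, passed the filter only through control and BPAF libraries. Gzma had the largest difference, 1.57 (SE 0.62, 95% interval 0.17 to 2.97, adjusted p = 0.615 in limma). Nkg7 followed with 1.26 (SE 0.55, 95% interval 0.02 to 2.51, adjusted p = 0.731 in limma). These 2 passed an unadjusted p under 0.05, as did 6.75% of all tested genes. The 95% intervals were -0.05 to 2.10 for Prf1, -0.42 to 2.41 for Gzmb and -0.15 to 1.96 for Cd3g, so differences from none to above 1.9 were within them. Gzma and Prf1 were higher in every BPAF library than in every BPB library, which held for 6.54% of the tested genes. No member was lower in every BPAF library, against 6.41%. Without BPAF 3 the log2 difference was 0.96 for Gzma and 0.44 for Gzmb. Same-numbered BPB and BPAF libraries deviated together, though some differently numbered control and BPB libraries did so at similar correlations. All 5 tested members and Cd3e were higher in BPAF in each of the 3 numbered pairs. For Gzma and Prf1 this follows from the groups not overlapping, under any pairing. Cd3d and Klrb1c were higher in 2 pairs, Cd8a in 1 and Cd4 in 0. In pair 2 the log2 difference was 0.05 for Cd3g, 0.12 for Prf1 and 0.17 for Gzmb. The share of all tested genes higher in all 3 pairs was not counted, so these pair counts only describe the members. With the number as a block in these 6 libraries, limma called 0 genes and no member, where Prf1 fell below the level for testing. The smallest adjusted p of a member was then 0.317 in limma, for Nkg7. An unadjusted p under 0.05 in limma was reached by 3 of the 4 members tested, and by 1739 of all 13269 genes tested there. This block was chosen after seeing the data, from correlations in the same values. Its p-values are therefore a description and give no support to a difference. Urothelial genes summed to 1712 to 2888 FPKM in BPB and 6.52 to 1432 in BPAF, and their part in these differences was not tested. The 3 comparisons share libraries, so their values are not independent of each other.

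**Figure D2:**
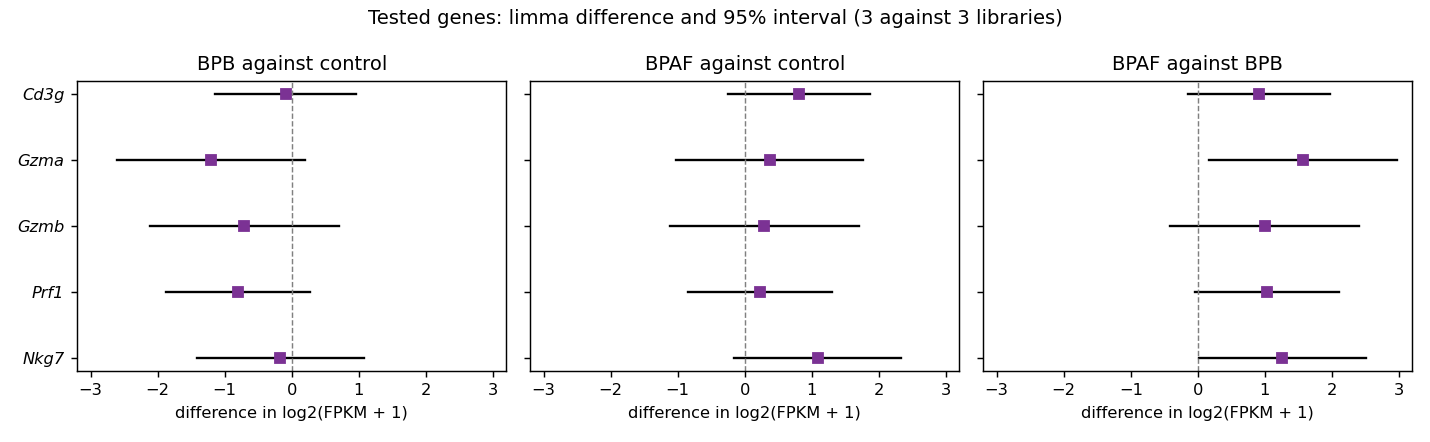
Difference in log2(FPKM + 1) for the 5 tested genes in each comparison (horizontal axes). Squares are limma estimates and lines 95% intervals, with 3 libraries a group. Most intervals cross 0, and those of Gzma and Nkg7 in BPAF against BPB begin at 0.17 and 0.02.

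The joint test of the 3 groups called 116 genes (0.844%) and no member, with adjusted p of 0.380 for Gzma to 0.660 for Gzmb in limma, and no member had an unadjusted p under 0.05 there. The 5 members below the level for testing passed no test at a lower level. At 0.1 FPKM in 3 libraries, Cd3d, Cd3e, Cd4 and Klrb1c could be tested, and their smallest adjusted p in limma was 0.483, for Klrb1c in BPAF against control. Cd8a was tested only with no such filter and had adjusted p of 0.609 to 0.970 in limma.

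Genes of natural killer receptors and their regulators, a list of 21, were detected and uneven between libraries, as the members were. Of the 10 tested, limma called 0 in any comparison, and 0, 0 and 2 had an unadjusted p under 0.05 in BPB against control, BPAF against control and BPAF against BPB. Over all tested genes these shares were 17.4%, 12.8% and 6.75%. Ncr1, the receptor NKp46, had 4.67, 1.81 and 2.59 FPKM in controls, 2.84, 3.54 and 1.45 in BPB and 5.74, 2.50 and 12.7 in BPAF. It had 31 to 270 reads, and the groups overlapped. Klrg1, an inhibitory receptor of mature cells, had 1.45, 0.255 and 1.06 FPKM in controls, 0.0485, 0.272 and 0.475 in BPB and 3.53, 0.242 and 7.24 in BPAF. Its log2 difference in BPAF against BPB was 1.52 (SE 0.59, adjusted p = 0.601 in limma). Itga1, an integrin also expressed by smooth muscle, averaged 7.69 ± 4.05 FPKM in BPAF and 23.9 ± 11.9 in BPB (adjusted p = 0.448 in limma). The list's median log2 difference was -0.32 in BPB against control, 0.47 in BPAF against control and 0.76 in BPAF against BPB. Members of the Klra, Klrb1 and Klrc families resemble each other, so their reads may be split between copies.

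Granzymes apart from A and B varied widely among the 3 BPAF libraries. Gzmd had 60.6 FPKM in BPAF 1 and 13.4 FPKM in BPAF 3, and 0.542 to 6.81 FPKM in the other 7 libraries. Gzmc, known from activated killer cells, had 22.6, 1.98 and 33.8 FPKM in BPAF. In the controls it had 3.90, 4.17 and 2.80 FPKM and in BPB 1.69, 2.74 and 1.28 FPKM, so that every BPB library lay below every control, as for 6.10% of the tested genes. Gzmg had 58.3 FPKM in BPAF 1, 4.36 FPKM in BPAF 3 and 7.78 FPKM in control 2, and at most 1.60 FPKM elsewhere. BPAF 1 was thus the highest library for Gzmd, Gzme, Gzmf and Gzmg, and BPAF 3 for Gzma and Gzmc. BPAF 1 also carried the urothelial genes, and BPAF 3 did not, and their part in the granzyme values was not tested. Gzmk, known from T cells, had 0 to 7 reads, and Gzmm 6 to 23 reads.

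Across the 16 other granule and killing genes, 13 were tested in limma and 0 called in any comparison, with 2, 2 and 4 at an unadjusted p under 0.05 in the same order (17.4%, 12.8% and 6.75% of all tested genes). Gzmc had a log2 difference of 2.25 in BPAF against BPB (SE 0.76, adjusted p = 0.458 in limma) and 1.56 in BPAF against control (adjusted p = 0.420 in limma). Ctsw, a protease of cytotoxic cells, had a log2 difference of 1.31 in BPAF against BPB (adjusted p = 0.525 in limma). Ctsc, which activates granzymes and is widely expressed, averaged 17.1 ± 4.62 FPKM in control, 8.81 ± 1.64 in BPB and 9.95 ± 2.07 in BPAF. Its adjusted p in limma was 0.143 in BPB and 0.344 in BPAF. The list's medians were -0.68 in BPB against control, 0.38 in BPAF against control and 1.22 in BPAF against BPB. Gzmd, Gzme, Gzmf and Gzmg are close copies of each other, so reads may be shared between them.

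**Figure D3:**
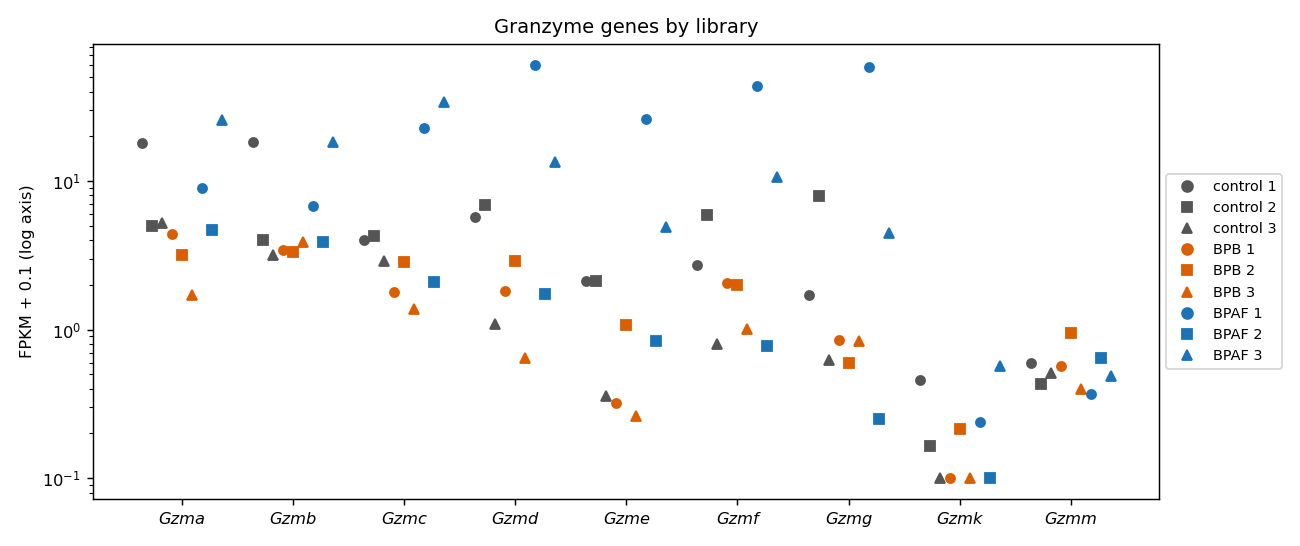
FPKM + 0.1 on a log axis for 9 granzyme genes (horizontal axis). Colours are groups and symbols replicates. BPAF 1 and BPAF 3 are the highest for Gzmc, Gzmd, Gzme and Gzmf, with 60.6 FPKM for Gzmd in BPAF 1, and Gzmk and Gzmm stay below 1 FPKM.

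T-cell receptor and proximal signalling genes were mostly below the level for testing. Of 22 genes 5 were tested in limma, and 0 were called or had an unadjusted p under 0.05 in any comparison. Lck, the kinase that phosphorylates the CD3 chains, averaged 1.52 ± 0.541 FPKM in control, 1.11 ± 0.344 in BPB and 2.30 ± 1.02 in BPAF (adjusted p in limma 0.718, 0.596 and, for BPAF against BPB, 0.752). Trac, the constant part of the receptor alpha chain, was highest in BPAF 1 with 5.61 FPKM and had 0.456 to 2.46 FPKM in the others. Trdc, the constant part of the delta chain, was highest in BPAF 3 with 2.44 FPKM. Ptpn22, a phosphatase that restrains the receptor's signal, had adjusted p of 0.594 in BPB and 0.824 in BPAF in limma. The list's medians were -0.09, 0.37 and 0.42 in the order BPB against control, BPAF against control and BPAF against BPB.

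In the list of T-cell subsets and states, 5 of 20 genes were tested in limma and 0 called in any comparison, with 1, 2 and 1 at an unadjusted p under 0.05 (17.4%, 12.8% and 6.75% of all tested genes). Tcf7, a transcription factor of T cells that other tissues express too, averaged 4.0 ± 1.04 FPKM in control, 5.59 ± 1.84 in BPB and 9.45 ± 0.514 in BPAF. Its 3 BPAF libraries lay above all controls, as for 14.3% of the tested genes, with a log2 difference from control of 1.08 (SE 0.27, adjusted p = 0.275 in limma). Lef1, related to Tcf7, had adjusted p of 0.408 in BPB and 0.418 in BPAF against control in limma. Foxp3, the regulatory T-cell factor, had 7 and 3 reads in controls 1 and 3 and 0 in the other 7 libraries. The list's medians were 0.38, 0.87 and 0.31 in the same order.

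Signals that attract or sustain these cells were 16 genes, of which 15 were matched in the files, 6 tested in limma and 0 called. In BPB against control 1 had an unadjusted p under 0.05 (17.4% of all tested genes), and 0 in the other comparisons. Cxcl16, the ligand of Cxcr6, averaged 11.96 ± 3.97 FPKM in control, 4.41 ± 1.65 in BPB and 8.58 ± 5.21 in BPAF (adjusted p = 0.165 and 0.619 in limma). Its BPB libraries all lay below the controls, as for 6.10% of the tested genes. Il15, the cytokine on which natural killer cells depend, ranged from 2.54 to 5.64 FPKM over the 9 libraries (adjusted p of 0.716 in BPB and 0.843 in BPAF in limma). Ccl5, a chemokine that killer cells also release, had adjusted p of 0.686 and 0.979 in limma. Cxcl9 and Cxcl10, chemokines that interferon induces, had 5.02 and 16.6 FPKM in control 1 and at most 1.09 and 1.73 FPKM in the others. The list's medians were -0.25, -0.07 and 0.28.

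**Figure D4:**
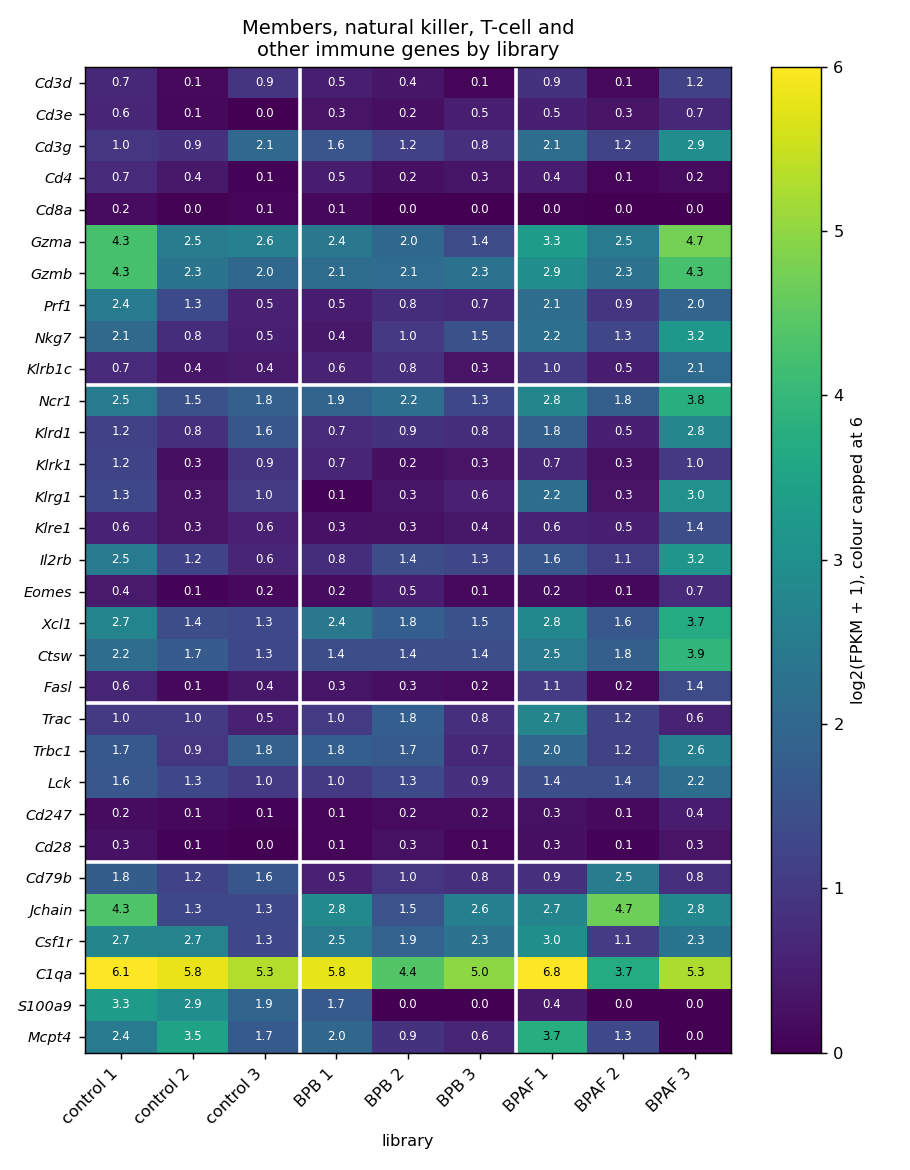
log2(FPKM + 1) of the 10 members, 10 natural killer and granule genes, 5 T-cell genes and 6 genes of other immune cells (rows, separated by white lines) in the 9 libraries (columns). Printed values are the same quantity as the colours. The rows of Ncr1, Il2rb, Xcl1 and Ctsw are highest in BPAF 3, as is that of Gzma, and the rows of Cd3e, Cd4 and Cd8a stay below 1.

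Markers of other immune cells did not all share that order of libraries. The 8 genes of all leukocytes, 7 of them tested and none called in any comparison, averaged 2.89 in control 1, 2.78 in BPAF 1 and 2.79 in BPAF 3 on the log2(FPKM + 1) scale, and 1.61 to 2.24 in the other 6 libraries. They summed to 26.9 to 63.9 FPKM in control, 23.1 to 40.4 in BPB and 33.5 to 65.8 in BPAF. Of these 8 genes, 4 had control 1, BPAF 1 and BPAF 3 as their highest libraries, an order that 0.90% of all tested genes had. The granule sum over the leukocyte gene Ptprc was 15.5 in control 1, 14.2 in BPAF 1 and 19.1 in BPAF 3. In the other 6 libraries it ranged from 7.38 (BPB 3) to 41.4 (control 3, where Ptprc had 0.221 FPKM). The part of the total leukocyte level in the granule values was not tested. The 8 macrophage genes averaged 4.04 in BPAF 1, 2.75 in BPAF 3 and 1.89 in BPAF 2. They summed to 93.6 to 175 FPKM in control, 53.0 to 127 in BPB and 31.2 to 264 in BPAF. Neutrophil genes summed to 7.15 to 22.5 FPKM in control, 0.224 to 2.93 in BPB and 0.817 to 4.03 in BPAF, and S100a9 was listed at 0 in BPB 2, BPB 3, BPAF 2 and BPAF 3.

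B and plasma cell genes were highest in BPAF 2, with 31.9 FPKM summed over 8 genes, and control 1, with 23.7 FPKM. They had 3.43 to 8.09 FPKM in the other 7 libraries. Mast cell genes, which matter here because mast cells can also express Gzmb, summed to 8.60 to 39.1 FPKM in control, 7.09 to 49.7 in BPB and 16.4 to 40.6 in BPAF. Hdc, the histamine-forming enzyme, made up 39.9 FPKM of the highest BPB sum. The 6 tested genes of this list had a median log2 difference of -1.32 in BPB against control, and none was called. Cpa3 averaged 0.624 ± 0.604 FPKM in BPB and 3.56 ± 1.90 in control (adjusted p = 0.237 in limma), and Tpsb2 0.729 ± 0.394 against 4.08 ± 3.06 (adjusted p = 0.188 in limma). In BPAF 3, where Gzmb had 18.1 FPKM, Mcpt4 was listed at 0 and Cpa3 had 0.197 FPKM, while Tpsb2 had 1.18, Kit 5.38 and Hdc 25.1 FPKM. The part of mast cells in the Gzmb values was not tested. Dendritic cell genes summed to 2.93 to 9.12 FPKM over all libraries. Of 6 thymus genes Rag2 was listed at 0 in all libraries, and Rag1, Dntt, Ptcra and Psmb11 had at most 4 reads. The remaining gene, Cd1d1, which presents lipids and is widely expressed, had 41 to 458 reads. It averaged 1.21 ± 0.375 FPKM in control, 3.34 ± 0.924 in BPB and 6.55 ± 3.53 in BPAF (adjusted p = 0.246 and 0.245 against control in limma). Adipocyte genes summed to 85.9 to 108 FPKM in control, 104 to 906 in BPB and 3.46 to 683 in BPAF. In the 3 libraries with high granule genes, urothelial genes summed to 6.83 (control 1), 1432 (BPAF 1) and 12.7 FPKM (BPAF 3). Interferon genes summed to 1974, 270 and 214 FPKM in the same libraries. The part of either list in the granule values was not tested.

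**Figure D5:**
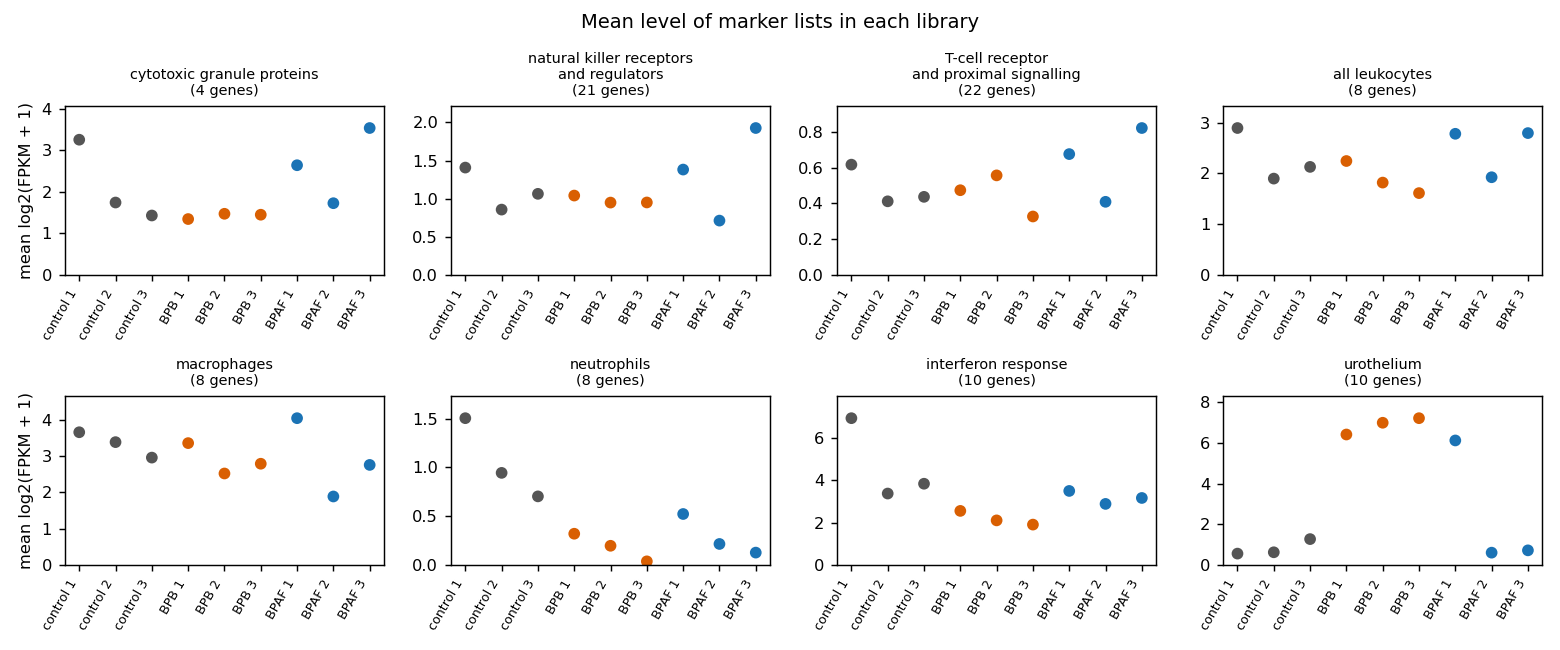
Mean log2(FPKM + 1) of 8 marker lists (vertical axes, 1 scale per list) in each library, coloured by group. The granule and leukocyte lists are high in control 1, BPAF 1 and BPAF 3, while the interferon list peaks in control 1 at 6.92 and the urothelial list is above 6 in BPB and BPAF 1.

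Likeness to Prf1 and Cd3g was taken as the root mean square difference over the 9 libraries between log2(FPKM + 1) values centred on each gene's mean. The 5 nearest to Prf1 were Hcls1 (0.25), Selplg (0.27), Nckap1l (0.29), Rac2 (0.35) and Ly6e (0.35), where the SD of Prf1 itself was 0.75. Hcls1, Selplg, Nckap1l and Rac2 are known mainly from blood cells, and Ly6e is widely expressed and induced by interferon. Cd3e was not tested, so Cd3g stood in for it. The genes nearest to Cd3g, whose SD was 0.72, were Rps26-ps1 (0.22), Klra7 (0.23), Gm29152 (0.29), Rpl37rt (0.30) and Calcrl (0.30). Of these Klra7 is a natural killer receptor gene, and Rps26-ps1 and Rpl37rt are copies of ribosomal protein genes.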

How the data were processed

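Uterus RNA of 9 libraries was analysed, grouped by sample titles. The authors deposited 1 value per gene symbol and library, read here as FPKM from the values, since the file headers name no unit. For genes with a single GENCODE M21 transcript, 84.8% to 86.8% of the deposited FPKM values times length lay within 0.01 of whole reads. The sources used here do not give the aligner, counter, build or annotation. Reads of a member came from the shortest length giving whole reads (within 0.02) in all libraries. Of 34745 lines, 126 with repeated symbols were left out.

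limma 3.58.1 in R 4.3.3 (trend, robust, two-sided) was fitted to log2(FPKM + 1) over all 9 libraries with group as the only term, which understates changes of low genes, and was tested on simulated data. The design had allowed for counts, and its branch for normalized values was used. Members and lists were chosen with earlier results of these data known. All 10 members are named, and from each pathway list the 3 genes of smallest p, of which 1 is not reported here. Other genes were picked by role after their values were seen. Alternatives covered filters, pseudocounts, variance models, scalings, the threshold, a replicate block, fits to 2 groups only and leaving out single libraries. The deviations of same-numbered libraries from their group means, over the tested genes, correlated at 0.34 to 0.48 between BPB and BPAF (3 pairs), and at -0.40 to -0.08 with controls (6 pairs). Differently numbered control and BPB libraries reached 0.33 (control 1, BPB 2), 0.37 (control 2, BPB 3) and 0.45 (control 3, BPB 1). The correlations alone thus cannot show that the numbers are pairs. Numbers were used as pairs between BPB and BPAF only, a choice made from the data and not from the labels.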

Additional observations from a re-analysis of the deposited data

How the results depend on the processing

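No member was called in any comparison under any of the alternatives (23, and 24 for BPAF against BPB), and the smallest adjusted p of a member in limma was 0.199 (BPB against control, without control 3). Calls over all genes moved far more, from 0 to 774 for BPB against control (351 in the report), 0 to 4 for BPAF against control (3), 0 to 237 for BPAF against BPB (33) and 0 to 325 for the joint test (116). With the replicate number as a block, limma called 19, 0 and 0 genes in the 3 comparisons, 0 in the joint test and 0 members. With the block in the BPB and BPAF libraries alone, an alternative chosen after seeing the data, the median of the tested members was 1.13, and 0 genes were called. Same-numbered control libraries had negative correlations with those of BPB and BPAF, so there the block is no pairing.

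The median difference of BPAF against BPB was 1.73 and 1.87 on the log2 scale at pseudocounts of 0.1 and 0.01 FPKM, where low values weigh more. Under scaling by median ratios the medians of all genes moved from 0.15 to -0.04 (BPB) and 0.21 to -0.02 (BPAF), and those of the tested members were -0.91, 0.10 and 0.97. That scaling made 198 higher and 107 lower calls in BPB against control, in place of 282 and 69. With each library left out in turn, the median ranged from -1.13 to -0.26, from 0.08 to 0.93 and from 0.77 to 1.44. Signs turned in these single values, and the cause was not tested. In BPB against control Nkg7 ranged from -0.47 to 0.30 (0.30 without control 1, 0.12 without BPB 1) and Cd3g from -0.31 to 0.29 (0.29 without control 3, 0.09 without BPB 3). In BPAF against control Gzma ranged from -0.24 to 0.93 (-0.24 without BPAF 3). There Gzmb ranged from -0.27 to 0.99 (-0.27 without BPAF 3, -0.13 without control 3) and Prf1 from -0.22 to 0.72 (-0.22 without control 3, -0.01 without BPAF 1). For the 5 untested members, 25 values moved by more than the spread between libraries, all at smaller pseudocounts. Depth limits Cd3e and Cd8a most.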
